A study of Chlamydomonas reinhardtii with 8 samples.

Results

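SLT1 and SLT2 are genes for sodium-coupled sulfate transporters of the green alga Chlamydomonas reinhardtii, and they were found by their symbols among the 17737 genes of the deposited expression table (2 of 17737). Both were picked with their levels in zinc-deficient and zinc-replete cells already seen, so what follows describes their values and tests nothing. RNA sequencing of polyadenylated RNA was done on strain CC-4532 grown in acetate medium under continuous light, in 8 conditions. Zinc-deficient cells came from a second successive culture without added zinc and are the 0 h state, and 2.5 µM zinc chloride was then given to them and they were sampled after 1.5 h, 3 h, 4.5 h, 12 h and 24 h. The other 2 conditions are zinc-replete cultures that the labels call early and late, without stating how their ages relate to the deficient culture. No culture was handled the same way without zinc, so time after the addition and zinc itself cannot be told apart.

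Sulfate is the main sulfur source of this alga. It enters through plasma membrane carriers of the SLT family, which use sodium, and of the SULTR family, which use protons. Inside the cell it is activated by ATP sulfurylase, reduced to sulfite and sulfide, and joined to O-acetylserine to make cysteine, from which methionine and glutathione are built. SLT1 and SLT2 are known in this alga as transcripts that accumulate when sulfate is withheld, together with arylsulfatase, which frees sulfate from organic compounds outside the cell.

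The table holds FPKM, a measure of transcript abundance in which sequenced fragments are scaled to the length of the transcript and the size of the library. Each gene has 1 value in each condition, between deposited lower and upper confidence bounds. The design names 4 biological replicates per condition, but their separate values are not part of the table, so no SD, no n and no p-value can be given for any difference. The RNA came from whole cultures, so fewer cells with a transcript and less of it per cell cannot be told apart. The ranges in brackets below are the deposited bounds. A gene is said to have risen or fallen, or to be called, where the log2 ratio of FPKM + 1 was at least 1 in size, the 2 bounded ranges lay apart, both values were of status OK and the mean over the 8 conditions was at least 1 FPKM. Between 11014 and 11554 genes reached 1 FPKM in a condition. The zinc importer genes ZRT1 and ZRT3, which served as a check of the labels, stood at 313 and 103 FPKM in deficient cells, and at most at 0.383 and 0.144 FPKM in replete cells.

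SLT1 (Cre12.g502600) spans chromosome 12 from 2807687 to 2813938, and SLT2 (Cre10.g445000) spans chromosome 10 from 3489763 to 3495854. Both spans are those of the table and equal those of the reference assembly Chlamydomonas_reinhardtii_v5.5. The third gene of the family, SLT3 (Cre10.g445050), lies next to SLT2 and starts after a gap of 48 bases, from 3495903 to 3502674.

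In zinc-deficient cells both transporter transcripts stood far above their replete levels. SLT1 was at 218 FPKM (165 to 272) in deficient cells, against 1.69 FPKM (1.25 to 2.13) in early and 1.14 FPKM (0.746 to 1.53) in late replete cells. SLT2 was at 219 FPKM (167 to 271) in deficient cells, against 9.69 FPKM (7.69 to 11.7) in early and 7.47 FPKM (5.11 to 9.84) in late replete cells. For either gene the bounds of the deficient cells lay clear of both replete cultures, while the bounds of the 2 replete cultures overlapped.

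Both genes stood at nearly the same level in deficiency, and SLT1, with the lower replete level, had the larger fold difference. SLT1 was 129-fold above the early and 192-fold above the late replete level, with log2 ratios of 6.35 and 6.68. SLT2 was 22.6-fold and 29.3-fold above them, with log2 ratios of 4.36 and 4.70. The folds are of plain FPKM, while the log2 ratios carry a pseudocount of 1, which weighs most on the low replete level of SLT1. With a pseudocount of 0.1 the log2 ratios to early and late replete cells were 6.93 and 7.46 for SLT1 and 4.48 and 4.85 for SLT2, and with one of 5 they were 5.06 and 5.18 for SLT1 and 3.93 and 4.17 for SLT2. Among all tested genes ordered by log2 ratio, SLT1 held place 8 against early and place 6 against late replete cells, and SLT2 held places 18 and 17. Higher calls covered 7.59% of all genes against early and 7.48% against late replete cells. Over all genes, 5.58% of 11451 were called higher in deficiency against both replete cultures, and both transporters were chosen from among such genes. Placed by FPKM among all genes of a condition, the pair held places 311 (SLT1) and 310 (SLT2) of 17702 in deficient cells. In early replete cells SLT1 held place 9681 and SLT2 place 3913 of 17707.

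**Figure D1:**
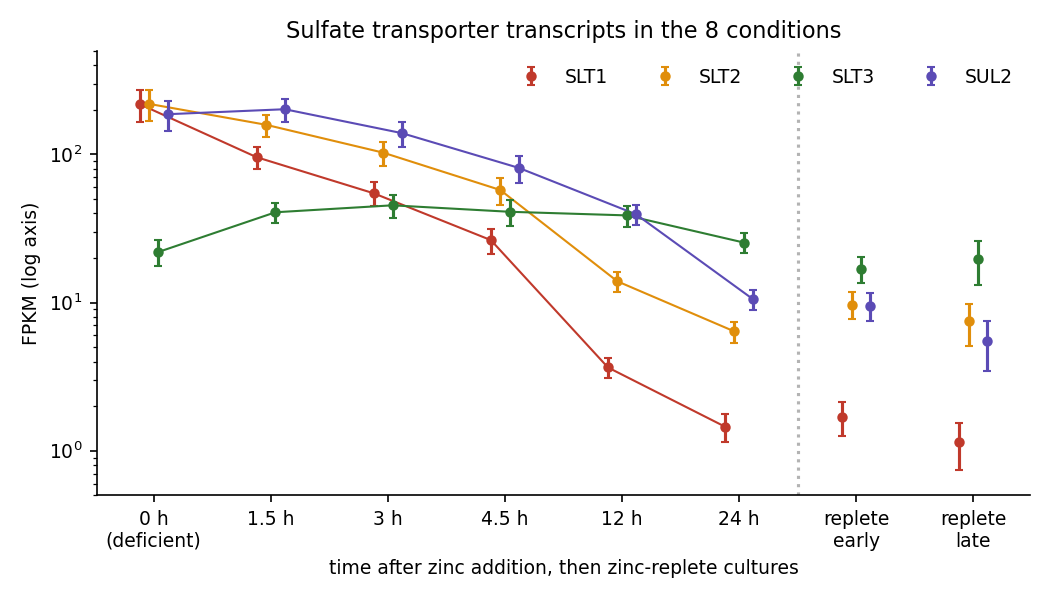
FPKM on a log axis of SLT1, SLT2, SLT3 and SUL2 at 0 h (zinc-deficient), at 5 times after zinc addition and in early and late zinc-replete cultures. Points are the deposited values, bars the deposited confidence bounds and lines join the times of the zinc resupply. SLT1 and SLT2 start together at 218 and 219 FPKM and part as they decline, SUL2 is highest at 1.5 h, and SLT3 stays between 16.9 and 45.3 FPKM.

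After zinc was added, the SLT1 level was lower at each successive time. It was 218 FPKM at 0 h, 95.6 FPKM (79.4 to 112) at 1.5 h, 54.6 FPKM (44.5 to 64.6) at 3 h, 26.4 FPKM (21.2 to 31.5) at 4.5 h, 3.64 FPKM (3.09 to 4.20) at 12 h and 1.45 FPKM (1.14 to 1.77) at 24 h. None of the bounds of neighbouring times overlapped. Against 0 h SLT1 had fallen at every time, with log2 ratios of -1.18, -1.98, -3.00, -5.56 and -6.48 from the first to the last time.

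The SLT2 level was also lower at each successive time, and it was first called lower than at 0 h at 3 h. It was 219 FPKM at 0 h, 158 FPKM (131 to 186) at 1.5 h, 103 FPKM (83.3 to 122) at 3 h, 57.5 FPKM (45.8 to 69.2) at 4.5 h, 13.9 FPKM (11.8 to 16.0) at 12 h and 6.38 FPKM (5.34 to 7.42) at 24 h. The bounds at 1.5 h overlapped those at 0 h, and no other neighbouring times overlapped. SLT2 was not called at 1.5 h, with a log2 ratio of -0.47, and had fallen at 3, 4.5, 12 and 24 h, with log2 ratios of -1.09, -1.91, -3.88 and -4.90. The share of all tested genes called lower than at 0 h was 9.24% at 1.5 h, 5.8% at 3 h, 6.51% at 4.5 h, 6.31% at 12 h and 6.92% at 24 h. These comparisons all share the 0 h value, and since the pair was chosen with that value known, the counts describe it and carry no support of their own.

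Between neighbouring times after 1.5 h, SLT1, SLT2 or both were called lower in every step but that from 1.5 to 3 h. From 3 to 4.5 h 0.0958% of tested genes were called lower, and SLT1 was 1 of these 11 genes (log2 ratio -1.02), just past the threshold, while SLT2 had a log2 ratio of -0.83 and was not called. From 4.5 to 12 h 1.27% of genes were called lower, and both transporters fell, SLT1 with the 2nd lowest log2 ratio of 11470 genes (-2.56) and SLT2 with the 8th lowest (-1.97). From 1.5 to 3 h neither was called, with log2 ratios of -0.80 for SLT1 and -0.62 for SLT2, where 0.715% of genes were called lower. From 12 to 24 h SLT2 fell (log2 ratio -1.01), SLT1 was not called (-0.92), and 0.454% of genes were called lower. This split depends on the pseudocount, since SLT1 was called with a pseudocount of 0.1 (-1.27) and SLT2 was not with one of 5 (-0.73). Without a pseudocount SLT1 changed by -0.11 and SLT2 by -0.09 log2 units of FPKM per hour in that interval.

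Expressed as a share of the 0 h level, SLT1 retained less than SLT2 at all 5 times. The replete level of SLT1 was also a smaller share of its 0 h level. As log2(FPKM + 1), SLT1 had covered 18.2% of the way to the mean replete level at 1.5 h and 85.4% at 12 h. SLT2 had covered 10.3% and 85.7% at these times. SLT1 retained 43.8% at 1.5 h, 25.0% at 3 h, 12.1% at 4.5 h, 1.67% at 12 h and 0.665% at 24 h. SLT2 retained 72.3%, 46.9%, 26.2%, 6.35% and 2.91% at the same times. By the deposited values alone, SLT1 declined most steeply up to 1.5 h, at -0.79 log2 units of FPKM per hour. SLT2 changed by -0.31 per hour in that interval. For SLT2 the steepest interval was from 3 to 4.5 h, at -0.56 log2 units per hour, when SLT1 changed by -0.70 per hour. After 4.5 h both rates were smaller, at -0.38 for SLT1 and -0.27 for SLT2 up to 12 h. No bounds were carried into these rates, so the order of the intervals is not settled.

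Set beside the other genes raised in deficiency, SLT1 lay near the median and SLT2 above it at 1.5 h, and both lay far below it at 12 and 24 h. Of the 639 genes called higher in deficiency against both replete cultures, 638 had usable values at every time, and their median share of the 0 h level was 46.0% at 1.5 h, 41.0% at 3 h, 35.2% at 4.5 h, 30.8% at 12 h and 26.3% at 24 h. At 1.5 h 52.8% of these genes retained more than SLT1 and 20.5% retained more than SLT2. At 12 h 98.3% retained more than SLT1 and 95.1% more than SLT2. At 24 h 98.3% retained more than SLT1 and 95.9% more than SLT2. For a gene back at its replete level the share left is the inverse of its fold difference in deficiency, so the places at 12 and 24 h largely restate the 0 h levels by which the pair was chosen. A lower level at each successive time, as in both transporters, was seen in 154 of the 639 genes (24.1%) and in 260 of all 11451 tested genes (2.27%).

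The zinc importers ZRT1 and ZRT3 lost most of their transcript sooner. ZRT1 retained 2.24% and ZRT3 0.207% of their 0 h levels at 1.5 h, where SLT1 and SLT2 retained 43.8% and 72.3%. By 24 h ZRT1 retained 0.0779% and ZRT3 0.147%.

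**Figure D2:**
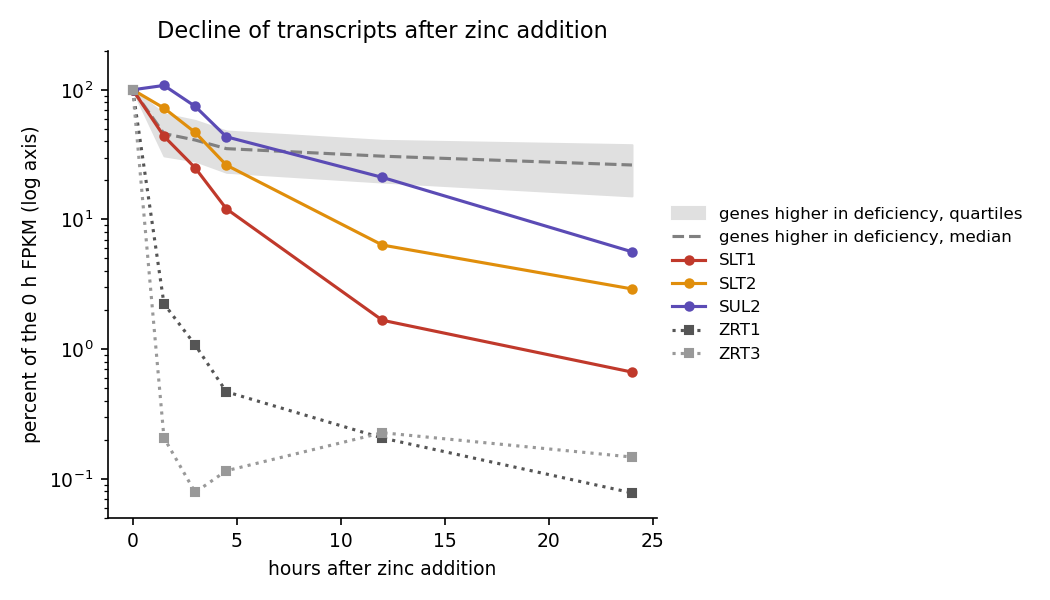
Percent of the 0 h FPKM, on a log axis, against hours after zinc addition for SLT1, SLT2, SUL2, ZRT1 and ZRT3. The dashed line is the median and the band the range between the lower and upper quartile of the 638 genes that were higher in deficiency. SLT1 lies near that median at 1.5 h (43.8% against 46.0%) and far below it at 24 h (0.665% against 26.3%), and ZRT1 and ZRT3 are already below both SLT genes at 1.5 h.

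By 24 h both transcripts were back at or below the replete range. SLT1, at 1.45 FPKM (1.14 to 1.77), overlapped the bounds of both replete cultures. SLT2, at 6.38 FPKM (5.34 to 7.42), overlapped the late culture (5.11 to 9.84) and lay below the bounds of the early culture (7.69 to 11.7), with a log2 ratio of -0.53 that was not called, where 0.445% of genes were called lower. At 12 h both still lay above the replete cultures without overlap, though the ranges of SLT2 and of the early culture nearly met (11.8 to 16.0 against 7.69 to 11.7). SLT1 was called higher at 12 h against late replete cells (log2 ratio 1.12, where 0.933% of genes were called higher) and not against early ones (0.79, where 0.358% were). SLT2 was called against neither at 12 h (0.81 against late and 0.48 against early). At 1.5, 3 and 4.5 h both were called higher than each replete culture. The share of all genes called higher than in early and in late replete cells was 9.25% and 14.4% at 1.5 h, 3.2% and 10.5% at 3 h, and 1.23% and 6.29% at 4.5 h. At 4.5 h the log2 ratios to the early culture were 3.35 for SLT1 and 2.45 for SLT2. Between the replete cultures themselves neither differed by the rule, with log2 ratios, late over early, of -0.33 for SLT1 and -0.34 for SLT2, and 0.689% of genes were called lower in late cells.

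The ratio of SLT1 to SLT2 was lower at each successive time of the recovery. FPKM is scaled to transcript length, which allows levels of different genes to be set side by side. Whether the SLT genes share reads was not tested. In deficient cells SLT1 stood at 0.997 times the SLT2 level, with overlapping bounds. The ratio was 0.604 at 1.5 h, 0.532 at 3 h, 0.459 at 4.5 h, 0.262 at 12 h and 0.228 at 24 h, and it was 0.175 in early and 0.152 in late replete cells. Taken from the deposited bounds of both genes, the ratio could lie between 0.153 and 0.331 at 24 h and between 0.609 and 1.62 at 0 h. These ranges of 24 h and 0 h lay apart, while those of all neighbouring times overlapped. In all conditions but 0 h the bounds of SLT1 lay below those of SLT2. SLT2 was thus the more abundant transcript of the pair in those conditions, by 5.73-fold in early and 6.56-fold in late replete cells.

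SLT3, the neighbour of SLT2 on chromosome 10, had another pattern. Its level was 21.9 FPKM (17.6 to 26.2) at 0 h, 40.7 FPKM at 1.5 h, 45.3 FPKM at 3 h, 41.0 FPKM at 4.5 h, 38.7 FPKM at 12 h and 25.4 FPKM at 24 h, and 16.9 FPKM in early and 19.6 FPKM in late replete cells. It was not called in deficiency against either replete culture (log2 ratios 0.36 and 0.16). SLT3 rose at 3 h against 0 h by a log2 ratio of 1.01, where 10.4% of genes were called higher, and this call ended after rescaling by median-of-ratios factors (0.86) or to equal totals (0.73). SLT3 was higher than in early replete cells at 1.5, 3, 4.5 and 12 h (log2 ratios 1.22, 1.37, 1.23 and 1.15) and than in late ones at 1.5, 3 and 4.5 h (1.02, 1.17 and 1.03), and it was not called at 12 h against late cells (0.95). Against late cells all 3 calls ended after rescaling to equal totals (0.93, 0.91 and 0.82), and those at 1.5 and 4.5 h also with median-of-ratios factors (0.98 and 0.94). A pseudocount of 5 ended the calls at 3 h against 0 h (0.90) and at 12 h against early cells (0.996). It also ended those at 1.5 and 4.5 h against late cells (0.89 and 0.90). At a threshold of 2 no SLT3 call remained. Of the summed FPKM of the 3 SLT genes, SLT3 made up 4.77% in deficient cells, 76.4% at 24 h, and 59.8% and 69.4% in early and late replete cells. The sum itself was 459 FPKM in deficient cells, 33.2 FPKM at 24 h, and 28.3 and 28.2 FPKM in early and late replete cells.

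**Figure D3:**
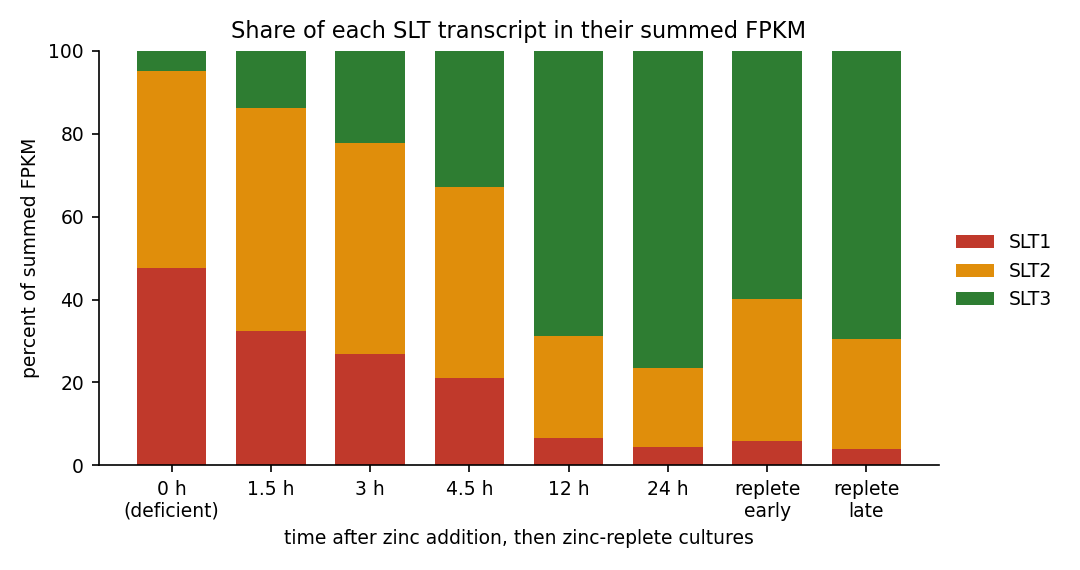
Share of SLT1, SLT2 and SLT3 in the sum of their FPKM, in percent, in each of the 8 conditions. SLT1 makes up 47.5% at 0 h and 4.37% at 24 h, and SLT3 4.77% and 76.4% at the same times.

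The genes on either side of the pair stood at far lower levels in deficient cells. Cre12.g502650, separated from SLT1 by 158 bases, stood at 0.248 FPKM in deficient cells and at most at 0.0293 FPKM in replete cells, and Cre12.g502550, on the other side of SLT1 after 68 bases, stood at 0.499 FPKM and at most at 0.450 FPKM. Both lay under the filter on mean level. The higher value of Cre12.g502650 in deficient cells, and its 0.0416 FPKM at 1.5 h, were therefore not tested. On the far side of SLT2, Cre10.g444950 stood at 2.99 FPKM in deficient cells, against 5.61 FPKM in early and 7.65 FPKM in late replete cells.

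Among carriers of the proton-coupled kind, SUL2 (Cre17.g723350, chromosome 17, 3314378 to 3329585) had levels closest to those of the pair. It stood at 187 FPKM (143 to 230) in deficient cells, against 9.52 FPKM (7.45 to 11.6) in early and 5.499 FPKM (3.46 to 7.53) in late replete cells, with log2 ratios of 4.16 and 4.85. After zinc addition SUL2 was at 202 FPKM at 1.5 h, 139 FPKM at 3 h, 80.9 FPKM at 4.5 h, 39.4 FPKM at 12 h and 10.5 FPKM (8.88 to 12.1) at 24 h. Its bounds at 1.5 h (166 to 237) overlapped those at 0 h. It was first called lower at 4.5 h (log2 ratio -1.19), and was still higher at 12 h than early and late replete cells (1.94 and 2.64). At 12 h SUL2 retained 21.1% of its 0 h level, against 6.35% for SLT2 and 1.67% for SLT1.

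SUL3 was lower throughout, at 12.1 FPKM in deficient cells against 5.59 FPKM in early and 4.01 FPKM in late replete cells. It was called against the late culture (log2 ratio 1.38) and not against the early one (0.99). SUL4, named after its values were seen, stood at 3.14 FPKM against 1.75 and 2.02 FPKM and was not called.

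Of 86 symbols sought besides the pair, 34 were found and 27 passed the filter on mean level, SLT3, SUL2 and SUL3 among them. Against both replete cultures 4 of the 27 were higher (14.8%) and 0 were lower, where 5.58% of all genes were higher and 5.76% lower. Their median log2 ratio was 0.19, and -0.07 over all tested genes. The 4 were SUL2, SAT1, ASL4 and CDO1. SAT1, serine acetyltransferase, which makes O-acetylserine, was at 69.3 FPKM in deficient cells against 15.7 and 15.2 FPKM in early and late replete cells. ASL4, an O-acetylserine (thiol) lyase, which makes cysteine, was at 143 FPKM against 60.9 and 56.1 FPKM. CDO1, cysteine dioxygenase, which oxidises cysteine, was at 78.7 FPKM against 7.44 and 9.46 FPKM.

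None of the genes found for enzymes that activate and reduce sulfate was called in deficiency. ATS1, the more abundant ATP sulfurylase transcript, was at 675 FPKM in deficient cells against 417 and 494 FPKM in early and late replete cells. APR1, adenylylsulfate reductase, was at 184 FPKM against 255 and 147 FPKM, and SIR3, a sulfite reductase, was at 8.44 FPKM against 10.9 and 6.67 FPKM. Of 9 symbols sought for this step, 5 were found (ATS1, ATS2, APK1, APR1, SIR3). All 5 lay short of a call against either replete culture. Over all tested genes, 5.58% were called higher and 5.76% lower against both cultures. With shares this small, 0 calls among 5 genes says little about this step.

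No arylsulfatase or extracellular protein known from sulfur starvation was called in deficiency, but most lay under the filter and were not tested. Over all tested genes, 5.58% were called higher against both replete cultures. ARS1 and ARS2, arylsulfatases, were at 1.35 and 0.910 FPKM in deficient cells, and at most at 0.612 and 0.328 FPKM in replete cells. ECP76 and ECP88, extracellular proteins of sulfur-starved cells, were at 1.73 and 0.0840 FPKM in deficient cells, and at most at 0.431 and 0.0654 FPKM in replete cells. All 4 had a mean under 1 FPKM and were therefore not tested. With no filter on the mean, the sulfur genes called higher against both replete cultures, besides the pair, still numbered 4, so the filter alone withheld no such call. The bounds in deficient cells of ARS1 (0.986 to 1.71), ARS2 (0.634 to 1.19) and ECP76 (1.27 to 2.19) nevertheless lay above those of both replete cultures, and those of ECP88 did not. ARS5, another arylsulfatase, was at 16.7 FPKM in deficient cells against 20.6 and 10.0 FPKM in early and late replete cells and was not called. LHCBM9, an antenna protein known from sulfur starvation, was at 81.2 FPKM in deficient cells against 151 and 149 FPKM in replete cells and was not called. The regulators SAC1 and SAC3 were at 5.85 and 34.0 FPKM in deficient cells, and between 4.60 and 7.33 and between 28.0 and 32.2 FPKM in replete cells.

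At 1.5 h after zinc addition several assimilation genes moved while SLT1 fell. Of the 27 genes, 6 rose (22.2%) and 5 fell (18.5%) against 0 h, where 12% of all genes rose and 9.24% fell, and the median log2 ratio was -0.01 in the list and 0.02 over all genes. APR1 rose to 557 FPKM at 1.5 h, against 184 FPKM at 0 h. ASL1 and ASL2 rose to 36.99 and 28.1 FPKM, against 15.0 and 10.4 FPKM, and CGS1, cystathionine gamma-synthase of the methionine pathway, rose to 96.8 FPKM, against 37.8 FPKM. The other 2 genes that rose were ARS5 (46.8 against 16.7 FPKM) and SAC1 (13.4 against 5.85 FPKM), and the SAC1 call ended under both rescalings (0.99 and 0.97).

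Those that fell at 1.5 h include both cysteine dioxygenase genes. CDO1 stood at 7.90 FPKM at 1.5 h, against 78.7 FPKM at 0 h, and was thus within the range of the replete cultures when SLT1 still retained 43.8% of its 0 h level. CDO2 stood at 0.228 against 6.10 FPKM. The other 3 were ATS2 (11.8 against 31.8 FPKM), APK1, adenylylsulfate kinase (9.51 against 26.4 FPKM), and SQD1, an enzyme of sulfolipid synthesis (31.4 against 114 FPKM). SUL2 and SLT3 were not called at that time.

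At 24 h against 0 h, 1 of the 27 genes was higher (3.70%) and 5 were lower (18.5%), where 8.49% and 6.92% of all genes were. The 5 lower genes were SUL2, SAT1, ASL4, CDO1 and CDO2, and the higher one was LHCBM9, at 186 FPKM against 81.2 FPKM at 0 h. SAT1, at 17.8 FPKM at 24 h against 69.3 FPKM at 0 h, overlapped the bounds of both replete cultures again.

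**Figure D4:**
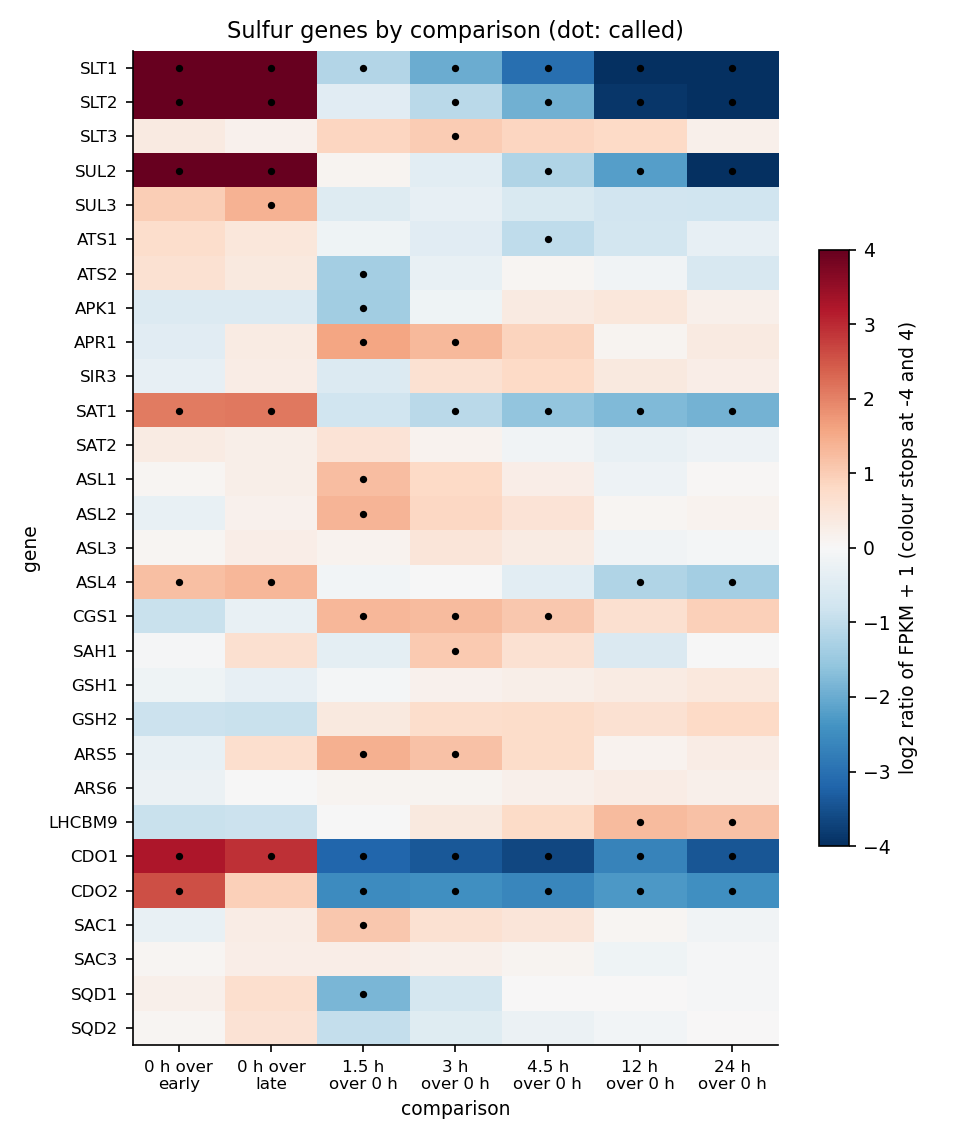
Log2 ratios of FPKM + 1 for SLT1, SLT2 and the 27 sulfur genes that passed the filter on mean level, in deficient cells (0 h) over early and late replete cells and at 5 times after zinc addition over 0 h. Red is higher, blue lower, colour stops at -4 and 4, and a dot marks a called value. SLT1, SLT2, SUL2 and SAT1 are red in the first 2 columns and blue at 12 and 24 h, while APR1, ASL1, ASL2 and CGS1 are red at 1.5 h.

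Over the 8 conditions the pair resembled each other more than any other gene with a symbol resembled either. Pearson's r of log2(FPKM + 1) between SLT1 and SLT2 was 0.996, and SLT2 was first among 1256 genes with a symbol and 4th among all 5206 genes compared with SLT1. All these genes had a mean of at least 1 FPKM and a range of at least 1 log2 unit, and 164 of them reached an r of 0.95 with SLT1 and 133 with SLT2. The next genes with a symbol most like SLT1 were LZY1B, HSP22F, RDP3 and OTA1 (r between 0.990 and 0.992), and those most like SLT2 after SLT1 were OTA1, HSP22F, RDP3 and DAT1 (r between 0.987 and 0.993). HSP22F, a small heat shock protein, stood at 553 FPKM in deficient cells, against 83.1 and 54.5 FPKM in early and late replete cells. RDP3 stood at 252 FPKM against 13.6 and 10.0 FPKM. For SUL2 r was 0.954 with SLT1 and 0.960 with SLT2, for SLT3 it was 0.449 and 0.478, and for ZRT1 0.825 and 0.787. These r values rest on 8 points that share 1 table and 1 time course, and they describe likeness of shape and not of size. Both transporters were chosen with their higher level in deficiency known, which by itself favours a high r between them.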

How the data were processed

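The authors deposited 1 table of FPKM with confidence bounds and a status per gene and condition, per the file headers. TopHat2 and Cuffdiff are named, without versions, per the submitters' processing notes. The level of the bounds, the way replicates were combined, strand settings, the handling of reads that fit several genes and the genome build were each not given in the sources used here. Gene spans equalled those of the reference table (Chlamydomonas_reinhardtii_v5.5) for 98.6% of 11713 matched identifiers. Sequencing depth is unknown, since low FPKM values gave no step common to conditions (0.341% of 2055 low genes at the commonest ratio), so bounds are the only error given. Whether SLT1, SLT2 and SLT3 share reads was not tested.

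Log2 ratios of FPKM + 1 (pseudocount 1) were computed in Python 3.11.15 (pandas 2.3.3, numpy 2.4.6) for 22 comparisons over all genes, with the call rule given above. The rule was run on simulated data with planted changes above the threshold and equal relative bounds for all genes. That run says nothing about calls near the threshold or at low levels. The 8 alternatives changed the pseudocount, filter, threshold, use of bounds and scaling. Named genes were the pair, its neighbours, genes of the sulfur lists called in deficiency or at 1.5 h, other sulfate carriers and assimilation genes, ZRT1, ZRT3, and the 5 genes with a symbol most correlated with each of SLT1 and SLT2. ARS1, ARS2, ECP76, ECP88, LHCBM9, SAC3 and SUL4 were named outside this rule. Members, lists and tests were chosen with earlier results of these data known. The symbol SBP1 was left out of the chloroplast uptake list, because in this alga it names a Calvin cycle enzyme, so that list had 0 genes. There were 0 columns of per-sample values left unused.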

Additional observations from a re-analysis of the deposited data

How the results depend on the processing

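No paired analysis was possible because each condition has 1 deposited value, and for the same reason no replicate could be left out. Of 352 alternative log2 ratios of SLT1 and SLT2, 338 kept their side of the call rule and 0 changed sign among called values. Part of this was fixed in advance. The alternatives for the filter on mean level could not alter any of these calls, since SLT1 and SLT2 had means of 50.3 and 71.9 FPKM. Changes of filter, threshold or use of bounds leave the ratio as it was, so they could not change a sign. A threshold of 2 ended the calls of SLT1 against 0 h at 1.5 h (-1.18) and 3 h (-1.98), of SLT2 against 0 h at 3 h (-1.09) and 4.5 h (-1.91), of SLT1 at 12 h against late replete cells (1.12) and from 3 to 4.5 h (-1.02), and of SLT2 from 4.5 to 12 h (-1.97) and from 12 to 24 h (-1.01), since these ratios are smaller. A pseudocount of 5, which shrinks ratios of low values, ended the calls of SLT1 at 12 h against late replete cells (0.49) and from 3 to 4.5 h (-0.93) and of SLT2 from 12 to 24 h (-0.73). A pseudocount of 0.1 added calls of SLT1 at 12 h against early replete cells (1.06) and from 12 to 24 h (-1.27). Equal totals shifted all log2 ratios of a comparison by up to 0.30 (deficient over early replete cells) and median-of-ratios factors by at most 0.16 downward (3 h over 0 h, -0.16). Rescaling to the same total ended the SLT1 call from 3 to 4.5 h (-0.97). The sulfur genes called at 1.5 h became 0 higher and 2 lower at a threshold of 2, against 6 and 5, and all 20 rescaled shares of the 0 h level moved by less than the half-width of the deposited bounds. Of the 432 alternative values of 54 calls of single sulfur genes, 62 lost the call and 0 changed sign. SAH1, CGS1 and ARS5 at 3 h were among those lost after rescaling to the same total. The genes called higher in deficiency against both replete cultures numbered 639, and 357 with a pseudocount of 5, 415 with a mean of at least 5 FPKM and 167 at a threshold of 2. The lower ones numbered 660, and 318, 433 and 139 under the same settings. Over the 22 comparisons, all counts of called genes moved by over 1.5 times with a pseudocount of 5 (0.323 to 0.597 times) and at a threshold of 2 (0.025 to 0.463 times), 10 did so with a pseudocount of 0.1 (up to 3.27 times), and 5 with a mean of at least 5 FPKM.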
